A study of Mus musculus with 22 samples.

Results

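The cytosolic ribosome is built of ribosomal RNA and of the proteins of a small and a large subunit, and the genes of those proteins, Rps and Rpl, are among the most strongly transcribed genes of any cell. Members were taken by symbol. A gene belonged where the array's annotation gave a probeset a single symbol made of Rpl or Rps and a digit, or Rplp0, Rplp1, Rplp2 or Rpsa. The Rps6k kinases and names ending in "-ps" were left out. This gave 67 of the 22251 symbols of the annotation. Of these, 36 code for proteins of the large subunit, 20 for the small subunit and 3 for the stalk of the large subunit. Another 7 are paralogs (Rpl3l, Rpl7l1, Rpl10l, Rpl22l1, Rpl39l, Rps4l and Rps27l), and 1, Rps19bp1, codes for a protein named for binding a ribosomal protein. Rps4l is listed in the annotation under the older symbol Rps4y2.

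The mice were naive adult males, 10 of the inbred strain C57BL/6J (called B6) and 12 of DBA/2J (called D2), with no treatment named in the labels. Whole-brain RNA was depleted of ribosomal RNA and hybridised to the Affymetrix Mouse Exon 1.0 ST array, which holds several probesets along the exons of a gene, with 1 mouse per array. The 22 arrays described came out of 24 hybridised, since the submitters set aside 2 that another scanner had read. The series title names alternative splicing in the whole brain of the strains as its subject. In whole tissue, fewer cells of a type and less RNA per cell cannot be told apart.

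As background, each ribosome holds close to a single copy of most of these proteins, and cells adjust their production mainly by translation. Their messages begin with a C followed by an unbroken run of pyrimidines, the tract through which the growth regulator mTOR controls how strongly they are translated. Ribosomal protein genes have also left many processed pseudogenes in mammalian genomes, so a short probe can match more than 1 locus. The probes follow a reference genome of the B6 kind, and a base that differs in D2 under a probe lowers the D2 signal with no change in the transcript. No probe sequence or variant table was used here, so the part of such variants, of pseudogenes or of related copies in any value below was not tested.

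Some sequence features were more frequent at the promoters of the members than over all genes, and none was present in every member. RefSeq sequence (GRCm38.p6) from 250 bases before to 50 bases after the annotated start was at hand for 53 of the 67. A tract made of C followed by 4 or more letters C or T, with the C within 5 bases of the annotated start, was present in 24 of the 53 (45.3%), against 21.2% of the 27025 genes of the table. Windows from 20 bases before the start through the first 15 bases of the transcript are printed for 8 members, with the tract in capitals. Of these, Rpl15 had a lower gene value in D2, Rps10 and Rps2 were among the 5 tested members that varied least between mice, and Rps6 is the substrate of the S6 kinases, which mTOR activates:
Rpl15, chr14:18270972-18271006, minus strand: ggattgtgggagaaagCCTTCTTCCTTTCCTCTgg
Rps10, chr17:27635230-27635264, minus strand: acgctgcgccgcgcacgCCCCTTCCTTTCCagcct
Rps2, chr17:24720043-24720077, plus strand: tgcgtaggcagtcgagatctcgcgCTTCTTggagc
Rps6, chr4:86857353-86857387, minus strand: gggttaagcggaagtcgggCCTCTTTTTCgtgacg

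The same windows of Rps3, Rpl23, Rps15 and Rpsa, members on which the strain comparison turns, held no such tract at the start that RefSeq annotates, which says only that these letters are not there:
Rps3, chr7:99483695-99483729, minus strand: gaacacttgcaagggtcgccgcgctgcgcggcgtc
Rpl23, chr11:97782425-97782459, minus strand: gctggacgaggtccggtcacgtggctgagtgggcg
Rps15, chr10:80292411-80292445, plus strand: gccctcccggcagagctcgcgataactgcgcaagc
Rpsa, chr9:120127746-120127780, plus strand: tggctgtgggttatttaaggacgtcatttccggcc

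Other letters were searched on both strands of the whole 300 bases, with overlaps between motifs allowed. CCGGAAG, the core of the sites bound by ETS factors, was in 39.6% of the 53 members and in 9.93% of all genes of the table. GGGCGG, the GC box, was in 62.3% and 38.2%, and AAGATGGC, the core of YY1 sites, in 11.3% and 3.19%. TATAAA, the TATA box, was in 11.3% of the members and 15.7% of all genes. The median GC content of the window was 58.0% in the members and 52.7% over all genes. A match is a string of letters and not a shown binding site.

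Values are on the log2 scale of the deposited table, and every difference is D2 minus B6. A probeset was kept where its mean over the 22 arrays reached the median of all probeset means, and a gene's value on an array is the median of its kept probesets with 1 symbol. The members had 492 probesets with a single symbol, of which 421 were kept, and each of the 67 had at least 1. For 46 members at least 3 probesets were kept, and these entered limma's test together with all other genes of that kind, 15951 in all. Of the other 21 members, 9 had 1 kept probeset and 12 had 2. A further 84 probesets that list a ribosomal symbol beside others were left out.

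Arrays of both strains overlapped in their general level. The median over the 46 tested members was 6.45 ± 0.20 (SD) over the 10 B6 mice, from 6.09 to 6.71, and 6.31 ± 0.17 (SD) over the 12 D2 mice, from 6.00 to 6.53. The median over all genes tested was 4.68 ± 0.10 in B6 and 4.58 ± 0.10 in D2. The median over all probesets moved the other way and was less shared. It was 1.44 ± 0.02 in B6, from 1.41 to 1.47, and 1.48 ± 0.02 in D2, from 1.45 to 1.51. The file names carry a letter, A for 18 arrays and B for 4, of which 2 are B6 and 2 D2, with a meaning not given in the sources used here. Both D2 arrays with letter B had the lowest medians over the members, 6.00 and 6.07. The B6 arrays with letter B had 6.21 and 6.71, the latter the highest of the 22. Of 41 tested marker genes of brain cell types, blood and pituitary, 1 was higher and 16 were lower in D2, beside 2.56% and 8.29% of all genes tested. The summed level of the red blood cell markers ran from 9.82 to 10.39 in B6 and from 5.25 to 7.27 in D2, and that of the pan-neuronal markers from 11.21 to 11.63 and from 11.13 to 11.56. For the other marker lists these ranges overlapped except for astrocytes, with 10.81 to 10.99 in B6 and 10.57 to 10.80 in D2. Such a sum follows its brightest gene. For red blood cells this was Hbb-b1, at 10.16 in B6 and 6.04 in D2, while Alas2 differed by -0.90 and Slc4a1 by 0.01. For astrocytes it was Aldoc, at 10.55 and 10.30, and of 6 markers 3 were called lower, 1 higher and 2 not at all. No tested marker had a mean below the level required of a probeset, and the part of these shifts in the members' values was not tested.

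At the level of whole genes, 7 of the 46 tested members (15.2%) differed between strains at an adjusted p under 0.05 in limma's test, beside 10.9% of all genes tested. Rps20, Rps15 and Rpl23 were higher in D2, and Rps3, Rpl21, Rps4l and Rpl15 were lower. Over all genes, 2.56% were called higher and 8.29% lower. The members' differences had a median of 0.01, with 25 above 0 and 21 below, and those of all genes had a median of -0.05. Only Rps3 was called with B6 and D2 mice that did not overlap, which held for 1.18% of all genes, and its gene value rested on which of its probesets were kept.

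**Figure D1:**
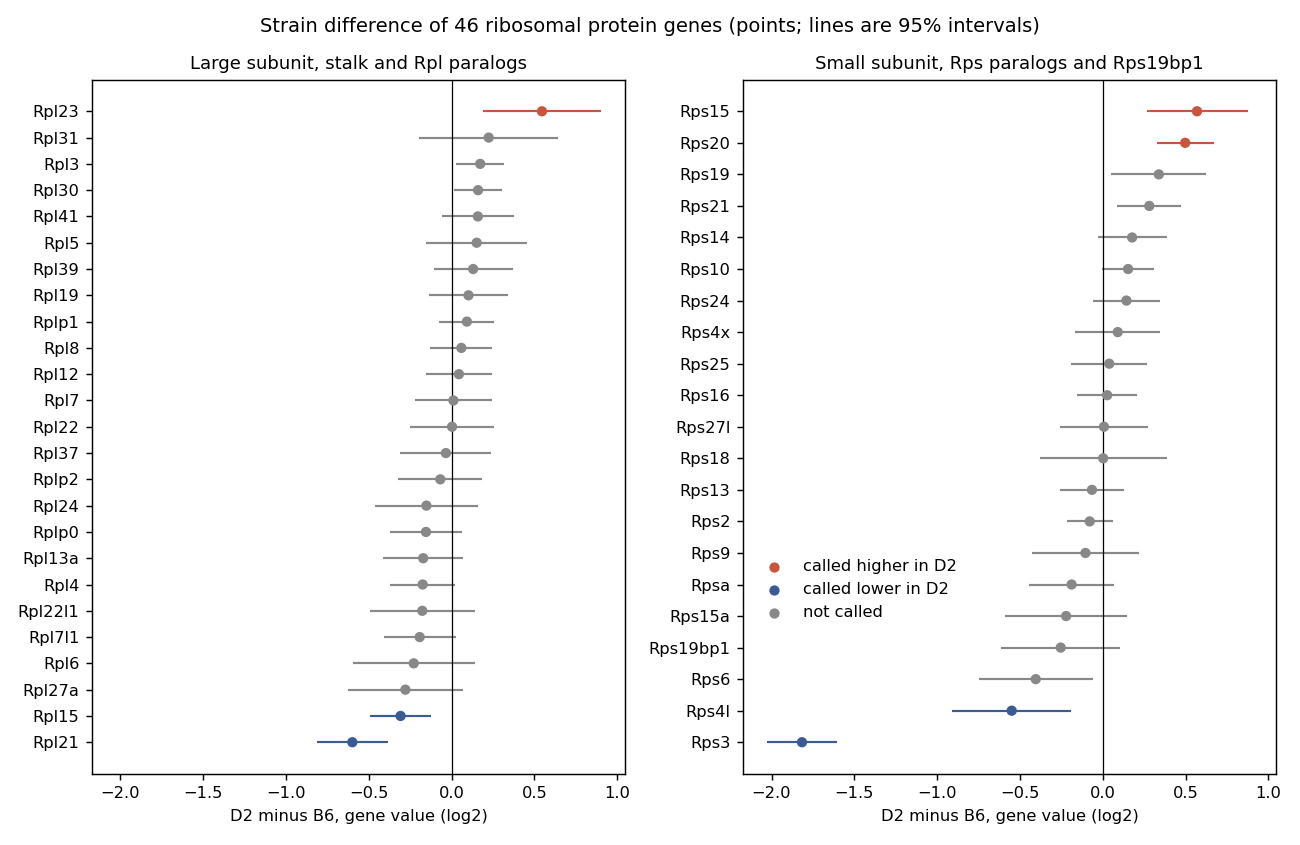
Strain difference (D2 minus B6, log2) of the 46 tested members, with large subunit, stalk and Rpl paralogs on the left and small subunit, Rps paralogs and Rps19bp1 on the right. Points are limma's estimates from 10 B6 and 12 D2 mice and lines their 95% intervals, without adjustment for the number of genes. Rps3 stands at -1.82, and the 39 members not called lie between -0.40 and 0.34.

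Among the small subunit proteins, Rps3 sits where the messenger RNA enters the ribosome and is also known for a role in DNA repair. Its gene value in B6 had a lowest, median and highest mouse of 6.64, 7.05 and 7.50, and in D2 of 4.88, 5.25 and 5.68. The B6 mean was 7.08 ± 0.23 (SD, n = 10) and the D2 mean 5.26 ± 0.24 (SD, n = 12), a difference of -1.82 (SE 0.10, adjusted p = 3.30e-13, limma). Every B6 mouse lay above every D2 mouse. This value includes a probeset that was kept only because it was high in B6, and without that probeset the difference was 0.15, so neither the size nor the p-value stands for the gene as a whole. The 8 kept probesets of Rps3 did not share this difference. In 3 of them D2 was lower without overlap: probeset 5241456 stood at 5.40 ± 0.63 in B6, while its D2 mean of -0.02 ± 0.16 was under the level of 1.44 required of a kept probeset. It was kept through B6 alone, so its difference is only a bound, at least 3.96 on the log2 scale when that level stands for D2. Probeset 5487547 went from 7.03 ± 0.17 to 2.85 ± 0.55 (difference -4.18, SE 0.18), and probeset 4835409 from 4.28 ± 0.32 to 1.71 ± 0.40 (difference -2.57, SE 0.16). The other 5 were higher in D2 by 0.16 to 0.34, with a median of 0.27, and none of these was called.

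The gene value of Rps3 therefore moves with the choice of probesets. With 1 of the 8 left out in turn, a choice made after seeing the data, the difference ran from -3.80 to 0.16. The value of 0.15 was not particular to the probeset kept through B6 alone. Leaving out some other single probesets gave 0.15 or 0.16, and leaving out any of the rest gave -3.80 to -3.78. With the filter set at the 75th percentile of probeset means it was 0.26 (adjusted p = 0.23, limma), and over the brighter probesets of the gene 0.30 (adjusted p = 0.067, limma). Within arrays of file letter A it was -1.77, and within letter B, with 2 mice per strain, -2.04.

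Rps20, a protein of the head of the small subunit, was higher in D2. Its lowest, median and highest mice were 7.18, 7.53 and 7.72 in B6 and 7.56, 7.99 and 8.24 in D2, so the strains overlapped at the edge. The B6 mean was 7.49 ± 0.17 (SD, n = 10) and the D2 mean 7.99 ± 0.19 (SD, n = 12), a difference of 0.50 (SE 0.08, adjusted p = 0.00015, limma) or 1.41-fold. All 6 kept probesets were higher in D2, by 0.28 to 1.02. Of these, 3 were called, and probeset 5461132 did so without overlap, at 7.39 ± 0.20 in B6 and 8.41 ± 0.18 in D2. With 1 probeset left out in turn the gene difference ran from 0.33 to 0.66. Among the called members Rps20 alone was called under each of the alternatives except arrays of letter B only, where the difference was 0.73 with 2 mice per strain (adjusted p = 0.24, limma).

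Rps15 lies near the decoding site and is needed for the export of the small subunit from the nucleus. Its mice ran from 4.61 through a median of 5.23 to 5.75 in B6 and from 4.90 through 5.73 to 6.40 in D2. The difference of the means was 0.57 (SE 0.15, adjusted p = 0.013, limma), and the strains overlapped. All 7 kept probesets were higher in D2, 6 of them by 0.10 to 0.38 and without a call. The called one, 5531751, differed by 0.60 and was close to the gene's own median on the arrays. Over the brighter probesets the difference was 0.14 (adjusted p = 0.46, limma), with the array median as a covariate 0.29 (adjusted p = 0.55, limma), and in the arrays of letter B 0.03. With 1 probeset left out in turn it ran from 0.21 to 0.42.

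**Figure D2:**
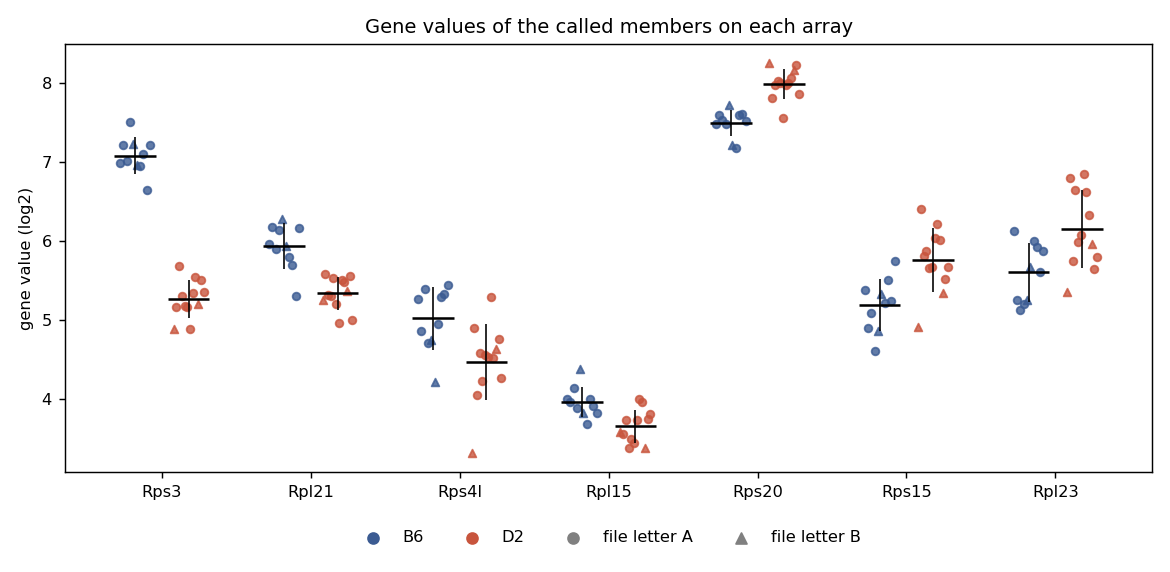
Gene value (log2) of the 7 called members on each array, B6 in blue and D2 in red, with circles for file letter A and triangles for letter B. Horizontal bars are means and vertical bars SDs over 10 B6 and 12 D2 mice. The strains separate in full for Rps3 and overlap for the other 6, and heights of different genes are not to be compared.

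The 15 other tested genes of the small subunit were not called. Their differences ran from -0.40 in Rps6 (95% interval -0.75 to -0.06) to 0.34 in Rps19 (0.05 to 0.62). Both of these genes had low values on the arrays. Rps6 stood at 2.95 ± 0.30 in B6 and 2.55 ± 0.51 in D2, from 3 kept probesets. Rps19 stood at 2.72 ± 0.34 in B6 and 3.06 ± 0.35 in D2, from 7. The median over the tested members was 6.45 in B6 and 6.31 in D2. Rps6 is the phosphorylated target of the S6 kinases, and Rps19 is the gene most often mutated in Diamond-Blackfan anaemia. Rps21 came closest to the threshold, at 6.72 ± 0.15 in B6 and 7.00 ± 0.25 in D2 (difference 0.28, adjusted p = 0.052, limma), and was called with the file letter as a block and with centred arrays. Rps10, a protein that is ubiquitinated when ribosomes collide, had all 10 kept probesets higher in D2 and a difference of 0.15 (-0.00 to 0.31). For Rps16 and Rps25 the estimates were 0.03 (-0.15 to 0.21) and 0.04 (-0.19 to 0.27). Several of these genes were called under other processing. Rps16 was called higher without the filter, and Rps10 and Rps19 with centred arrays. As the mean over probesets, Rps19 was called higher and Rps6 lower. Over the brighter probesets Rps2 and Rps9 were called lower, Rps9 also with the stricter filter.

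Rpsa, which is both a small subunit protein and the laminin receptor, was not called as a gene (difference -0.19, 95% interval -0.44 to 0.07, adjusted p = 0.36, limma) but held some of the strongest single-probeset differences. Probeset 5359463 had B6 mice from 7.81 through 8.19 to 8.38 and D2 mice from 6.10 through 6.44 to 6.75, a difference of -1.76 (SE 0.10). Probeset 5292954 fell from 8.16 ± 0.17 to 6.65 ± 0.24 and probeset 5164811 from 4.24 ± 0.50 to 2.31 ± 0.46. In these 3 no D2 mouse reached a B6 mouse. Another called probeset, 4626841, differed by -0.68 with overlap, and the other 8 had a median difference of -0.15. The mean over the 12 probesets put the gene at -0.58 (adjusted p = 5.8e-05, limma) and the brighter ones at -1.01 (adjusted p = 2.1e-07, limma).

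In the large subunit, 20 of the 36 genes could be tested, 1 was called higher, 2 were called lower and 17 were not called. Rpl21 was lower in D2. Its mice ran from 5.30 through 5.95 to 6.28 in B6 and from 4.96 through 5.34 to 5.58 in D2, with overlap, and the means differed by -0.60 (SE 0.10, adjusted p = 0.00026, limma), or 1.52-fold. The 4 kept probesets were unlike each other: 1, 5080070, differed by -1.11 and was called, while the other 3 ran from -0.19 to 0.53. Leaving out 1 of the 4 gave differences from -1.01 to -0.19, and the call was absent under the mean over probesets, the brighter probesets, the stricter filter, the array median as a covariate and the arrays of letter B.

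Rpl15, a core protein of the large subunit, was lower by 0.31 (SE 0.09, adjusted p = 0.028, limma). Its mice ran from 3.68 through 3.93 to 4.38 in B6 and from 3.37 through 3.65 to 4.00 in D2. None of its 8 kept probesets was called by limma, with 3 at an unadjusted p under 0.05; 6 were lower in D2 and 2 higher, and over the brighter ones the gene difference was 0.13. Under 8 other alternatives the gene was lower but not called.

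Rpl23, which can also bind the p53 regulator Mdm2, was higher in D2 by 0.55 (SE 0.17, adjusted p = 0.042, limma). Its mice ran from 5.12 through 5.64 to 6.12 in B6 and from 5.35 through 6.03 to 6.85 in D2. None of its 13 kept probesets was called by limma, with 2 at an unadjusted p under 0.05. The gene value was that of the middle probeset, 4785275, on the arrays, and that probeset alone gave an adjusted p of 0.11 in limma's test of probesets. The differences of the other 12 lay between -0.42 and 0.13, and with 1 probeset left out in turn the gene difference ran from -0.078 to 0.27. It was -0.14 with the stricter filter, -0.026 as the mean over probesets and -0.059 over the brighter ones.

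Rpl3, which lines the centre where peptide bonds form, was not called as a gene, with 8.73 ± 0.15 in B6 and 8.90 ± 0.13 in D2 (difference 0.17, 95% interval 0.03 to 0.32, adjusted p = 0.12, limma). Even so, 6 of its 22 kept probesets were called, all higher in D2, by 0.41 to 1.00. Probeset 4604600 went from 8.08 ± 0.17 to 9.08 ± 0.23 and probeset 5080658 from 8.76 ± 0.18 to 9.32 ± 0.11, both without overlap. Of the other 16, 13 were higher and 3 lower in D2, with a median of 0.06. The gene was called with centred arrays (0.27, adjusted p = 0.011, limma) and as the mean over probesets (0.23, adjusted p = 0.011, limma).

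The other large subunit genes without a call included several that were measured narrowly. Rpl30 differed by 0.16 (95% interval 0.02 to 0.30), Rpl8 by 0.06 (-0.13 to 0.25) and Rpl12, with 24 kept probesets, by 0.04 (-0.15 to 0.24). With centred arrays Rpl30 was called higher. Rpl4, which lines the exit tunnel of the new chain, differed by -0.17 (-0.37 to 0.02), with all 16 kept probesets lower in D2. Rpl5, which carries a ribosomal RNA into the large subunit, differed by 0.15 (-0.15 to 0.46) and Rpl22 by 0.00 (-0.25 to 0.26). Over all 39 members not called, the distance from the estimate to the end of its 95% interval was between 0.14 and 0.42. These intervals are not adjusted for the number of genes, and some, such as that of Rpl30, leave out 0. A missing call therefore does not show that a gene is equal in the strains.

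The stalk of the large subunit, built of Rplp0, Rplp1 and Rplp2, is where the elongation factors dock. None of the 3 genes was called by limma, and 0 had an unadjusted p under 0.05, with differences of -0.15 (95% interval -0.37 to 0.06), 0.09 (-0.07 to 0.26) and -0.07 (-0.32 to 0.19). Rplp0, a common reference gene in measurements of RNA, had 4 of its 20 kept probesets called lower in D2. Its probeset 4522941 had B6 mice from 9.51 through 9.98 to 10.25 and D2 mice from 7.45 through 8.57 to 8.74, a difference of -1.54 (SE 0.15). Probesets 4617450 and 4573664 differed by -1.38 and -0.84, also without overlap, and 4385715 by -0.57. The other 16 had a median difference of -0.03, 7 of them higher and 9 lower. Over the brighter probesets the gene stood at -0.84 (adjusted p = 0.00013, limma) and as the mean over probesets at -0.30 (adjusted p = 0.044, limma).

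**Figure D3:**
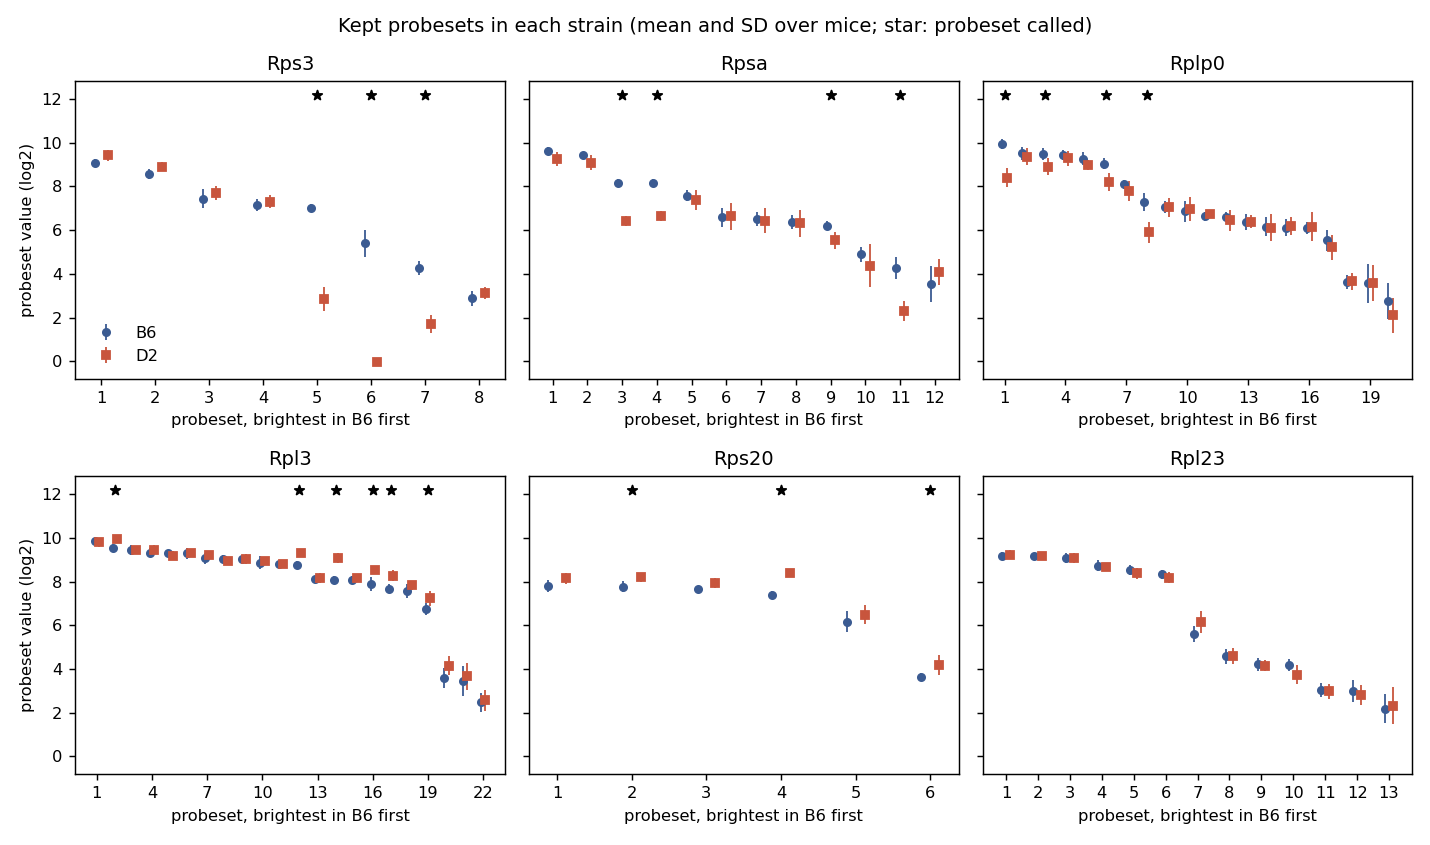
Mean and SD (log2) of each kept probeset in 10 B6 mice (blue circles) and 12 D2 mice (red squares) for 6 members, with probesets of a gene in order of their B6 level and stars for those called by limma. In Rps3, Rpsa and Rplp0 3 or 4 probesets are called lower in D2, while the others have median differences of 0.27, -0.15 and -0.03. In Rps20 all 6 are higher in D2, and in Rpl23 none of the 13 is called.

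Of the paralogs, Rps4l, a copy of the small subunit gene Rps4x, was lower in D2. Its mice ran from 4.21 through 5.10 to 5.44 in B6 and from 3.31 through 4.54 to 5.29 in D2, and the means differed by -0.55 (SE 0.18, adjusted p = 0.042, limma). Of its 3 kept probesets 2 were called, at -0.64 and -0.73, and the third differed by 0.12. With 1 probeset left out in turn the gene difference ran from -0.68 to -0.26, and the call was absent under 6 alternatives (no filter, centred arrays, the array median as a covariate, letter B only, without D2 mice 13, 14 and 19, and 1 kept probeset enough). Its parent Rps4x, on the X chromosome, differed by 0.09 (95% interval -0.16 to 0.35) and was not called, and the difference between the pair was not tested. Rpl22l1 (-0.18, -0.49 to 0.14), Rpl7l1 (-0.19, -0.41 to 0.03) and Rps27l (0.01, -0.26 to 0.27), a target of p53, were not called either. Rps19bp1, which is known to act on the deacetylase Sirt1, differed by -0.25 (-0.61 to 0.11).

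The 21 members with fewer than 3 kept probesets were fitted with all genes that had at least 1, of which 8.97% were called. Of the 21, 2 were called, both higher in D2. Rpl29 stood at 8.02 ± 0.12 in B6 (7.83 to 8.21) and 8.39 ± 0.15 in D2 (8.06 to 8.58), a difference of 0.37 (SE 0.07, adjusted p = 0.0011, limma) with overlap. Rps27 rests on 1 probeset of 3, at 3.68 ± 0.54 in B6 and 4.52 ± 0.57 in D2 (difference 0.84, SE 0.22, adjusted p = 0.015, limma). The other 19 ran from -0.33 in Rpl36 to 0.68 in Rpl13. The paralogs known for expression in muscle (Rpl3l) and testis (Rpl10l and Rpl39l) are among them. Rpl3l kept 1 of 10 probesets, Rpl10l 1 of 3 and Rpl39l 2 of 6, and their differences were 0.17 (SE 0.18), 0.46 (SE 0.22) and 0.07 (SE 0.14), none called.

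Counted over probesets, 30 of the 421 kept ones of members (7.13%) were called, 13 higher and 17 lower in D2, beside 4.06% of all kept probesets with 1 symbol and 3.91% of all kept probesets. The 30 belonged to 14 genes. In 12 of the 30 probesets, out of 421 kept, B6 and D2 mice did not overlap, 3 higher and 9 lower. Over all kept probesets with 1 symbol, 0.723% were called without overlap. The 9 lower ones were 3 each of Rps3, Rpsa and Rplp0, and probeset 5241456 of Rps3 among them was kept through B6 alone. Single called probesets were also found in genes without a gene call: Rps15a (-1.14), Rps6 (-1.16) and Rps9 (-0.91) on the lower side and Rps24 (0.63) on the higher side. Probesets of 1 gene share its transcripts and are not independent of each other.

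Exon usage was read from the splicing index, the value of a probeset minus the value of its gene on the same array. Of the members' 388 probesets in the test 24 were called (6.19%), 10 higher and 14 lower in D2, at an adjusted p under 0.05 in limma and an index difference of at least 0.5, beside 1.67% of all 236252. These lay in 11 of the 46 genes (23.9%), and 14.0% of all genes tested had such a probeset. Rps3, Rpl21, Rplp0 and Rpsa each had 3 or more, which 2.02% of all genes had. All 8 probesets of Rps3 were called, 5 of the 10 higher and 3 of the 14 lower ones. The shares of 6.19% of probesets and 23.9% of genes both include them. These 8 calls are measured against a gene value that rests on probeset 5241456, kept through B6 alone. The distance of both shares from those of all genes therefore rests in part on that probeset. The index of the 5 Rps3 probesets without a probeset call was 1.98 to 2.16 higher in D2, because the median they are measured against fell. This follows from how the index is built. Rpl21 had 2 index calls higher and 1 lower, and Rps4l had 1 higher, but neither had a probeset called higher. Their gene values were called lower as well, so these higher index calls carry the same limit. Without Rps3, the calls with index values that do not overlap were 3 probesets of Rplp0 (-0.68 to -1.39), 1 of Rpsa (-1.57), 1 of Rpl3 (0.83) and 1 of Rps20 (0.52). With the file letter as a block the number of called probesets was again 24, and 0 were called in the 4 arrays of letter B.

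**Figure D4:**
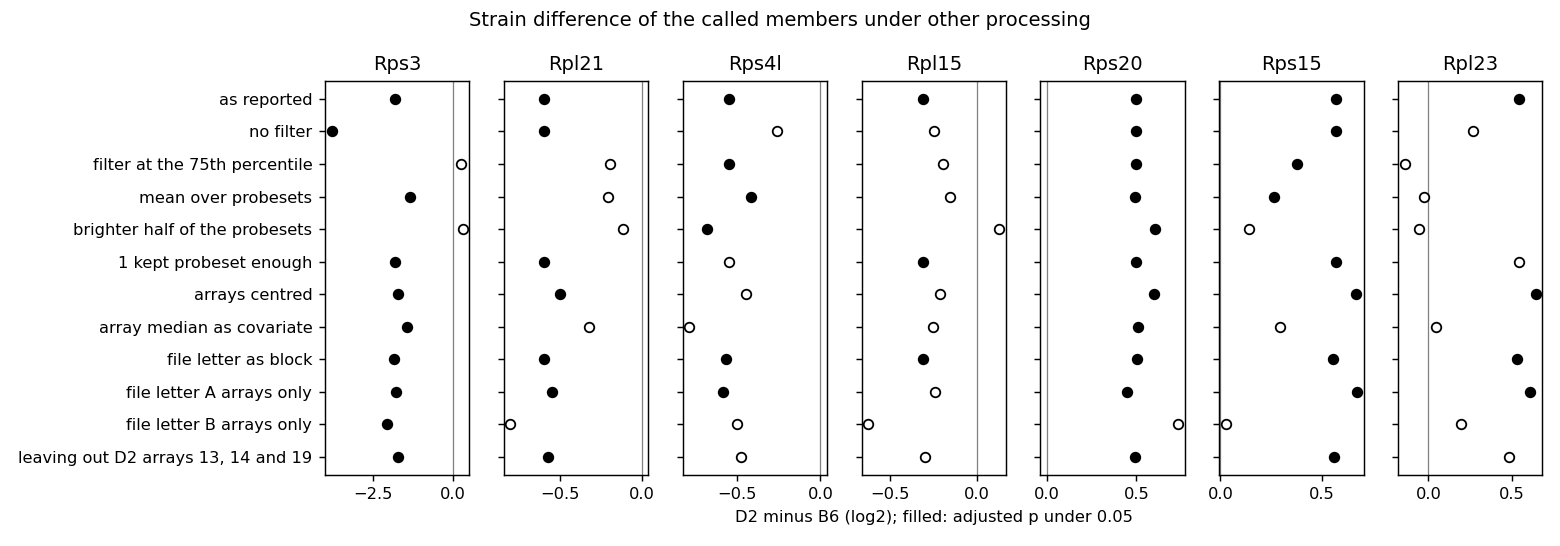
Strain difference (log2) of the 7 called members as reported and under 11 other ways of processing, with a filled circle where limma's adjusted p is under 0.05. Each gene has its own horizontal scale, and the grey line marks 0. Rps20 stays between 0.45 and 0.73, while Rps3, Rpl23 and Rpl15 cross 0 under some of them.

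Spread between mice of a strain differed among the tested members. The within-strain SD had a median of 0.28 over the 46, against 0.25 over all genes (quartiles 0.20 and 0.32), and 7 members lay below the lower quartile and 16 above the upper. Rps2, next to Rps3 at the entry of the messenger RNA, varied least (SD 0.12). Rpl30 (0.13), Rpl3 (0.14), Rps10 (0.16) and Rplp1 (0.17) followed. The SDs of Rpl31 (0.53), Rps18 (0.48), Rpl6 (0.46), Rps15a (0.46) and Rps19bp1 (0.45) stood at the other end. The B6 means ran from 7.55 (Rps10) to 8.73 (Rpl3) in the 5 least variable members and from 3.05 (Rpl31) to 5.92 (Rpl6) in the 5 most variable. Members had a median of 7 kept probesets and all genes one of 12. The part of level and of probeset number in the spread was not tested. By strain, the median SD of the members was 0.28 in B6 and 0.26 in D2, and 0.27 and 0.23 within letter A.

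The rest of the translation machinery was described through lists that hold other genes than the members. Of 104 tested genes on them, 8 were called, all lower in D2, beside 8.29% lower and 2.56% higher over all genes tested, so the count is near the background. Of 41 genes for the assembly of ribosomes and the synthesis of ribosomal RNA, 7 were called: Ltv1, an export factor of the small subunit (-0.86, SE 0.15), Gar1, a protein of the pseudouridine-making particles (-0.76, SE 0.20), Nmd3, the export adaptor of the large subunit (-0.55, SE 0.17), and Polr1a, the largest subunit of RNA polymerase I (-0.40, SE 0.09), besides Nolc1, Utp20 and Rrp9. The list's median difference was -0.16, against -0.05 over all genes. Of 34 initiation factors only Eif3l, a subunit of the scaffold of initiation, was called (-0.44, SE 0.11, adjusted p = 0.0062, limma), with a list median of -0.11.

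The other 2 lists with tested genes held no call by limma at an adjusted p under 0.05. The 12 tested elongation and related factors had a median of -0.12 and 2 genes at an unadjusted p under 0.05, with Eef1e1, a factor of the synthetase complex, and Eef2k, the kinase of an elongation factor, both at -0.23. The 17 tested genes of growth control, the pathway from mTOR to ribosomal protein messages, had a median of -0.07. At an unadjusted p under 0.05 were 3 of them: Tsc2, an inhibitor of the pathway (-0.20), Rps6ka3, a kinase of Rps6 (-0.18), and, in the other direction, Eif4ebp1, a repressor of translation that mTOR phosphorylates (0.39). Rheb, the activator of mTOR, at -0.20 and Larp4, a binding protein of messages, at -0.23 were not among these. With the array median as a covariate 1 of the 104 was called, and with the mean over probesets 19.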

How the data were processed

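The deposited values are log2 expression from RMA, which corrects background, equalizes arrays by quantiles and summarises each probeset. The submitters' processing notes name affy 1.12.2 and R 2.6.0. The probeset definition and build are not given in the sources used here. Of 1201338 probesets, 10932 were empty on all arrays and left out. Symbols came from GEO's platform annotation, which can be old, and were updated through RefSeq synonyms. Probesets with a mean of at least 1.44, the median of all probeset means, were kept, and a gene needed 3.

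All tests were fitted on the whole table with limma 3.58.1 in R 4.3.3 (lmFit and eBayes, two-sided, Benjamini-Hochberg over all features, threshold 0.05), without covariates, and the functions were tested on simulated data. Each array was 1 mouse, so the error behind a p-value is that between mice, and the number of arrays sets the precision. Alternatives changed the filter, the gene summary, the centring, the covariates and the arrays used.

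Named were the members called, those with exon usage calls whose index values do not overlap, the 5 with the largest and smallest SD, the paralogs, and up to 4 genes per list. The members and lists were chosen with earlier results of these data known. Figures were drawn with matplotlib 3.10.9.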

Additional observations from a re-analysis of the deposited data

Results flagged for a closer look

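In 2 of the 23 sets of B6 values examined for a single distant mouse (10 mice each), 1 lay far from the rest. Chance alone does so in about 1 in 20 groups. The gene value of Rps27l, the p53-responsive paralog of Rps27, was 2.70 in B6 mouse 8, while the other B6 mice ran from 3.28 to 3.93. The gene value of Rps10 was 7.86 in B6 mouse 12, and the others ran from 7.41 to 7.65.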

How the results depend on the processing

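As reported, 7 members were called. This count was 4 with the filter at the 75th percentile, 4 without D2 mice 13, 14 and 19 (which had correlated least with their strain in an earlier analysis), 2 with the array median as a covariate and 1 in the arrays of letter B, where 2 probesets and 0 exon usage changes of members were called against 30 and 24. With the mean over probesets 4 members were higher and 5 lower, and with the file letter as a block 4 and 4. Over the brighter probesets 1 was higher and 5 were lower. The genes called changed too: Rplp0, Rps2, Rps9 and Rpsa, not among the 7 reported, were called lower over the brighter probesets. Exon usage calls numbered 12 with the stricter filter and 13 at an index difference of at least 1. Genes called on the lists around the ribosome numbered 1 with the covariate and 19 with the mean over probesets, against 8. Rps3 reversed to 0.26 with the stricter filter, 0.30 over the brighter probesets and at most 0.16 with 1 probeset left out. Rpl23 reversed to -0.14 with the stricter filter, -0.026 as the mean, -0.059 over the brighter probesets and -0.078 with 1 probeset left out, and Rpl15 to 0.13 over the brighter probesets. Centring each array moved the median of all genes from -0.05 to 0.05 and the lower share of all calls from 76.4% to 42.2%, and 8 members were then higher and 2 lower. The cause of these changes was not tested. No paired analysis was possible because the strains share no replicate numbers.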
